A study of Mus musculus with 8 samples.

Results

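The cells with the highest and the lowest mitotic score were compared within each population of Tri-PyMT cells. A cell's score was the summed raw count of 10 genes (Top2a, Mki67, Cenpf, Aspm, Cenpe, Cdc20, Ccnb1, Ube2c, Hmmr and Tpx2) over all its counts. Columns with at least 1000 counts were ranked by the score within each library, and the top 25% (mitotic-high) were set against the bottom 25% (mitotic-low). Of 7400 cells in the count table, 5620 reached 1000 counts, and 2806 of these fell in the top or bottom 25%. That gave 741 mitotic-high and 741 mitotic-low cells labelled RFP+, and 662 of each labelled GFP+. The members were thus chosen by measured values, so what the 10 score genes did between the classes is a description and not a result.

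Tri-PyMT cells were cultured from a mammary tumour of a mouse that carried 3 transgenes. MMTV-PyMT drives a viral oncogene in mammary epithelium. Fsp1-cre expresses Cre recombinase from the S100a4 promoter (Fsp1 is a synonym of this gene), and Rosa26mT/mG switches a cell and its progeny from a red to a green membrane protein once Cre has acted. All cells share the 3 alleles and grew in the same medium, DMEM with serum. They were sorted by fluorescence into RFP+ and GFP+ fractions and profiled by Drop-seq, where droplets pair single cells with beads whose barcoded primers catch poly(A) RNA. The labels list 8 samples, which are 2 libraries for each population on 2 lanes each, with the lanes pooled in the table. The replicate is therefore the library, n = 2 for each population. The labels name no separate cultures behind them, so no p-value covers spread between cultures. In the tests below each gene took a spread pooled over all genes, so a p-value does not measure a single gene's spread between libraries. The 2 reporter rows of the table went against the labels. Levels are given in CPM, counts scaled to a common total. Over all cells used, the GFP row reached 606 and 582 CPM under the RFP+ label but 97.5 and 105 CPM under the GFP+ label. The RFP row reached 134 and 136 CPM, and 2949 and 3093 CPM, in that order. In the classes compared here, S100a4 ran from 542 to 735 CPM under the RFP+ label and from 1563 to 2313 CPM under the GFP+ label, and Vim, a mesenchymal filament, from 1531 to 1989 CPM and from 3004 to 3584 CPM. The keratin Krt18 ran from 923 to 1101 CPM and from 320 to 386 CPM, so S100a4 and Vim were higher and Krt18 lower under the GFP+ label. Whether labels or reporter rows were exchanged was not tested, and populations are called here by their label only.

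In G2 phase a dividing cell builds up the RNA and protein it needs for mitosis. These include the kinases that trigger entry, the condensins that compact chromosomes, the kinetochore that ties chromosomes to microtubules, and the motors that build the spindle and split the cell. The anaphase-promoting complex (APC/C) with Cdc20 then marks cyclin B and securin for destruction, which lets sister chromatids part. Genes of DNA replication peak earlier, at the passage from G1 to S phase, under E2F factors. Many G2 and mitotic genes are held down in G1 by the DREAM complex, which binds their promoters at the cell cycle homology region.

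The bounds of the classes were low in counts. The mitotic-high class began at 0.386% of a cell's counts in both RFP+ labelled libraries and, under the GFP+ label, at 0.406% and 0.401%, or at 4 to 5 score counts in the cell with fewest. The mitotic-low class ended at 0.103% and 0.0999% in the RFP+ and at 0.147% in both GFP+ labelled libraries. Mitotic-high cells had a median score of 0.541% and 0.508% under the RFP+ label, and of 0.560% and 0.547% under the GFP+ label. It was 0.0670% and 0.0633%, and 0.0833% and 0.0803%, in the mitotic-low cells in the same order. No score count at all was found in 126, 109, 75 and 82 mitotic-low cells of the 4 libraries. Between 129 and 147 cells a library lay within 10% of the upper bound, and 79 to 87 within 10% of the lower bound. In the first library labelled GFP+, the last cell inside the high class and the first outside both had 0.406%, and at the low bound they had 0.147% and 0.148%. The classes are thus ranges of a score, not cell types, and a mitotic-low cell is one in which few score counts were caught. Depth moved with the class: the median count of mitotic-high cells was 1.15 and 1.07 times that of mitotic-low cells in the RFP+, and 1.01 and 1.08 times in the GFP+ labelled libraries. Classes drawn within 5 depth strata are given beside the counts of genes. Doublets were not removed, and 2 barcodes shared by all 4 libraries had too few counts to be used.

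All 10 score genes were detected in both classes. Top2a, the topoisomerase that untangles DNA, stood at 1313 and 1151 CPM in mitotic-high cells labelled RFP+ against 165 and 133 CPM in mitotic-low cells. In the libraries labelled GFP+ it stood at 1327 and 1416 CPM against 215 and 178 CPM. The share of the score counts that each gene supplied is also a value the rule used, and it was not tested. In mitotic-high cells Top2a supplied 22.5% and 20.7% under the RFP+ label, which overlapped 21.1% and 23.2% under the GFP+ label. Of the 10 genes, 3 more are given here with their shares, chosen after their values were seen. Mki67, the proliferation marker that coats mitotic chromosomes, supplied 17.6% and 16.6% of the score counts of mitotic-high cells labelled GFP+ and 12.1% and 12.4% of those labelled RFP+. Ube2c, the ubiquitin-conjugating enzyme of the APC/C, supplied 7.17% and 7.45% against 11.7% and 10.5%. Cdc20, the activator of the APC/C, supplied 3.07% and 3.23% against 4.68% and 4.95%. In these 3 shares the libraries of the populations did not overlap. The same held for Aspm, Cenpe and Ccnb1, while the shares of Cenpf, Hmmr and Tpx2 overlapped. With 2 libraries against 2 there are 6 splits, so a gene without a difference separates in either direction with a chance of 0.333. The shares of a class also add up to the whole, so a shift in any gene moves the others. No difference between populations is drawn from them. Levels of Mki67, Ube2c and Cdc20 over all cells used, which include mitotic-high cells, differed in the direction of their shares but were not tested. There Mki67 had 571 and 524 CPM labelled GFP+ against 363 and 340 CPM labelled RFP+. Ube2c had 224 and 214 CPM against 344 and 301 CPM, and Cdc20 97.9 and 104 CPM against 156 and 156 CPM.

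A test that the rule does not fix came from leaving each score gene out in turn, so that cells were ranked by the other 9 genes alone. Every one of the 10 genes left out was then higher in mitotic-high cells in all 4 libraries and in both populations by edgeR's quasi-likelihood test. The log2 fold ranged from 1.23 (Top2a) to 2.31 (Aspm) in the RFP+ and from 1.08 (Mki67) to 1.95 (Aspm) in the GFP+ labelled libraries. Aspm, which focuses spindle poles, stood at 132 and 115 CPM against 26.2 and 21.7 CPM in the RFP+, and at 169 and 199 CPM against 60.6 and 29.8 CPM in the GFP+ labelled libraries. Each class of a library gives 1 summed value, and every mitotic-high value lay above every mitotic-low value. By edgeR's test of the difference, with adjustment over all genes tested, none of these folds differed between populations (adjusted p 0.952 or more).

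Counts were then summed over the cells of each class and library, without the score genes, and 7273 genes with a mean of 10 CPM or more over the 8 sums were tested. In such a sum, more cells with a gene's RNA and more RNA in each cell cannot be told apart. At an adjusted p under 0.05, 149 genes (2.05% of those tested) were higher and 197 (2.71%) lower in mitotic-high cells labelled RFP+. In those labelled GFP+, 110 (1.51%) were higher and 98 (1.35%) lower. Both populations shared 75 genes called higher and 71 called lower, which is 75 of 149 and of 110, and 71 of 197 and of 98. A 2-fold change was passed by 52 and 50 of the genes called higher, and by 9 and 10 of those called lower. Scaling by library totals alone turned the split to 193 higher and 99 lower labelled RFP+, and to 134 and 63 labelled GFP+, so the number of falls depends on the scaling. Classes drawn within 5 depth strata gave 152 and 205, and 114 and 84. Leaving out 1 library of the same population lowered the counts: to 67 and 63 without the first and 80 and 71 without the second labelled RFP+, and to 31 and 12 and to 54 and 29 labelled GFP+. The first library labelled GFP+ also moved the RFP+ labelled counts, to 90 and 117, through the shared fit. DESeq2's Wald test called 21 higher and 3 lower, and 22 and 1. Its fitted dispersion had a median of 0.131, while its own estimate for a gene lay at the minimum for 96.5% of genes.

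Among the lists, that of the spindle and cytokinesis held the most rises. Of 35 tested (37 in the table), 28 were higher in mitotic-high cells labelled RFP+ and 27 in those labelled GFP+, 26 of them in both, and the median log2 fold was 1.15 and 1.08 against -0.01 for all genes tested in either population. Nusap1, which bundles spindle microtubules, had 297 and 315 CPM in mitotic-high against 55.5 and 56.0 CPM in mitotic-low cells labelled RFP+. In the libraries labelled GFP+ it had 303 and 288 CPM against 60.3 and 59.4 CPM. The classes stood far apart in all 4 libraries, and the libraries of a class lay close together. Its log2 fold was 2.39 ± 0.17 (SE, n = 2; adjusted p = 1.87e-41) and 2.26 ± 0.18 (SE, n = 2; adjusted p = 1.53e-34). Prc1, which crosslinks the midzone microtubules between parting chromosomes, had 701 and 683 CPM against 222 and 188 CPM in the RFP+, and 754 and 753 CPM against 221 and 196 CPM in the GFP+ labelled libraries. No mitotic-low value came near a mitotic-high value, and the log2 folds were 1.69 ± 0.10 and 1.81 ± 0.10 (SE, n = 2). Kif23, the kinesin of the midbody, rose by a log2 fold of 1.58 and 1.49, and Ckap2, a spindle protein, by 1.20 and 1.61. The calls of Nusap1, Prc1, Kif23 and Ckap2 held under all 18 alternatives in both populations. Without the first library labelled GFP+, 16 genes of the list were called in that population. Kif14, a kinesin of cytokinesis, rose from 12.1 and 12.6 CPM to 53.4 and 66.8 CPM in the RFP+ labelled libraries (log2 fold 2.20). In the GFP+ labelled libraries it rose from 12.1 and 23.8 CPM to 65.7 and 81.4 CPM (2.01), a call lost without the first of them. Kif11, the motor that pushes the poles apart, rose by 1.46 and 1.44, and Arhgap11a by 1.52 and 1.30. Within single cells the same list showed the shift: its median share of a cell's counts was 0.679% and 0.660% in mitotic-high against 0.355% and 0.303% in mitotic-low cells labelled RFP+. It was 0.729% and 0.746% against 0.334% and 0.347% in those labelled GFP+.

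**Figure D1:**
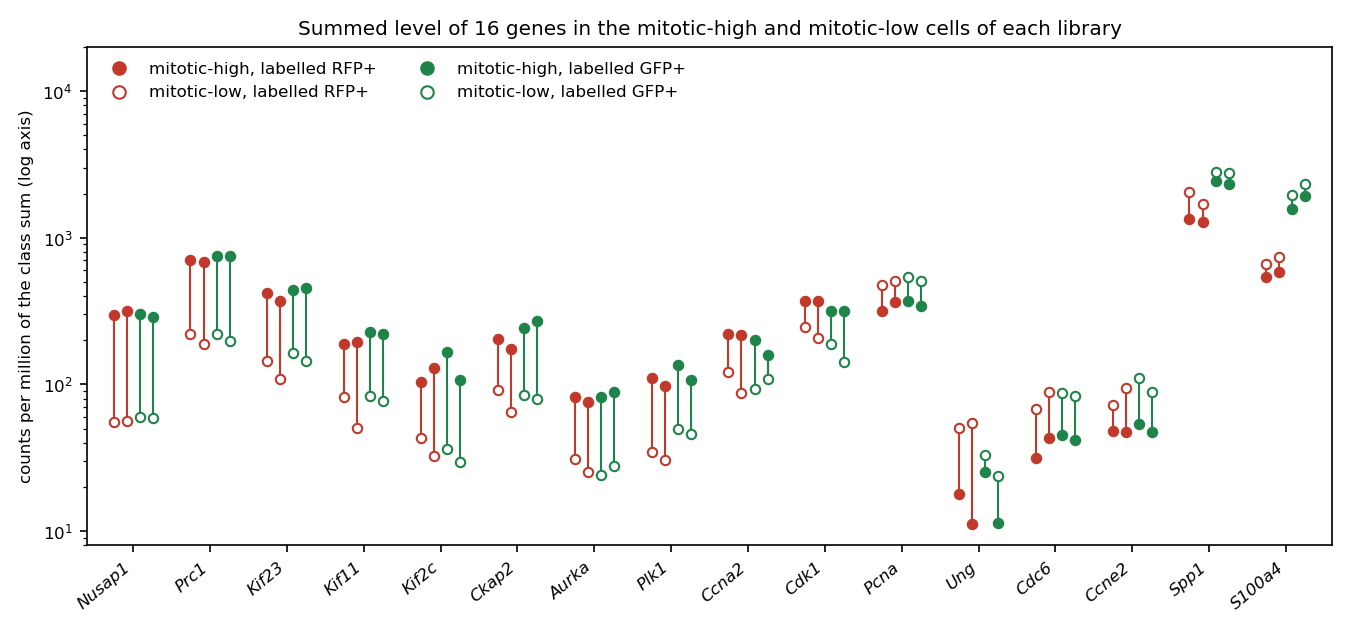
Summed level of 16 genes, in CPM on a log axis, in mitotic-high (filled) and mitotic-low (open) cells of each library, with a line joining the classes of 1 library. Libraries labelled RFP+ are red and those labelled GFP+ green; the filled point lies above the open point for Nusap1 to Cdk1 and below it for Pcna to S100a4 in all 4 libraries.

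Kinetochore genes attach chromosomes to the spindle, and checkpoint genes hold anaphase back until all are attached. Of 36 tested (38 in the table), 17 rose in the RFP+ and 15 in the GFP+ labelled cells, with 29 and 34 of the 36 folds above 0 and a median log2 fold of 0.75 in either. Kif2c, the kinesin that corrects faulty attachments, had 104 and 130 CPM against 43.3 and 32.5 CPM in the RFP+, and 165 and 108 CPM against 36.2 and 29.7 CPM in the GFP+ labelled libraries. All mitotic-high values lay above all mitotic-low values, with log2 folds of 1.55 ± 0.24 and 2.01 ± 0.25 (SE, n = 2), and the call held under all 18 alternatives in both populations. Casc5, the scaffold on which checkpoint proteins gather, rose by 1.29 and 1.65. Bub1b, a kinase-like protein of the checkpoint, rose by 1.47 and 1.49. The call of Bub1b was lost without the first library labelled RFP+ in that population, and without either library labelled GFP+ in the other. Leaving out the first or second library of a population gave 10 or 8 calls of this list labelled RFP+, and 5 or 11 labelled GFP+. DESeq2 called 2 and 3 genes of the list, against 12 and 13 of the spindle list.

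Of 24 tested mitotic kinases, cyclins and regulators, 11 rose in the RFP+ and 13 in the GFP+ labelled cells, 8 in both, with median log2 folds of 0.72 and 0.93. Without the first library labelled GFP+, 1 gene of this list was called in that population and 5 in the other, and the calls of Plk1, Aurka, Ccna2 and Nek2 labelled GFP+ were lost. Without the second, 7 were called there. Without the first or second library labelled RFP+, 5 or 6 were called in that population, and Nek2 was lost. Plk1, the polo kinase that drives entry and exit, had 111 and 96.9 CPM against 34.7 and 30.7 CPM in the RFP+, and 135 and 108 CPM against 49.99 and 45.5 CPM in the GFP+ labelled libraries (log2 folds 1.604 and 1.31). Aurka, the kinase of the spindle poles, had 82.2 and 76.3 CPM against 31.2 and 25.3 CPM, and 82.5 and 89.0 CPM against 24.1 and 27.7 CPM (1.42 and 1.68). For both genes every mitotic-high sum lay above every mitotic-low sum. Ccna2, the cyclin of S and G2 phase, rose by 1.003 and 0.81, and Nek2, a centrosomal kinase, by 1.12 and 1.49. Cdk1, the kinase that drives entry into mitosis, had 370 and 372 CPM against 244 and 208 CPM in the RFP+, and 317 and 314 CPM against 190 and 143 CPM in the GFP+ labelled libraries, or 0.65 ± 0.11 and 0.88 ± 0.13 (SE, n = 2). Of 19 tested genes of mitotic destruction 1 passed in each population, Pttg1 (securin, the inhibitor that the APC/C destroys), with log2 folds of 0.65 and 0.66 and a call that 9 and 8 of 18 alternatives ended, among them leaving out either library of its own population. The subunits Cdc27, Cdc26 and Anapc4 had folds of 0.37, -0.51 and 0.44 in the RFP+ labelled cells, none past the threshold.

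Among condensins, cohesins and chromatin proteins of dividing cells, 11 and 7 of 32 tested genes rose, with all 7 shared, at median log2 folds of 0.26 and 0.27. Smc4, a condensin core subunit, had 903 and 912 CPM against 466 and 540 CPM in the RFP+, and 840 and 973 CPM against 581 and 507 CPM in the GFP+ labelled libraries. The classes did not overlap, the folds were 0.79 and 0.69, and the call held under all 18 alternatives. Its partner Smc2 rose by 0.61 and 0.77, and the condensin subunit Ncapg by 1.10 and 1.03. Without the first or second library labelled RFP+, 7 or 6 genes were called in it, and without the first labelled GFP+, 4 in that population, with Ncapg lost. Of 11 tubulin and stathmin genes, the same 3 rose in both populations. Tuba1c rose by 0.74 and 0.39, Tubb4b by 0.69 and 0.45, and Tubb5 by 0.23 and 0.27. All 3 calls labelled GFP+, and that of Tubb5 labelled RFP+, were lost without either library of the same population. Of 33 genes of the nuclear pore and of import, Kpna2, which carries spindle factors into the nucleus, rose in both (1.14 and 1.08). Rangap1 rose in the RFP+ labelled cells (0.89) and Tpr in the GFP+ labelled cells (0.30). Each averaged higher without passing in the other population, Rangap1 at 322 against 248 CPM and Tpr at 589 against 515 CPM. Calls of Kpna2 and Tpr labelled GFP+ were lost without either library, and that of Kpna2 labelled RFP+ without the first. Outside the lists, Prr11 rose by 1.73 and 1.55, the latter lost without the first library labelled GFP+.

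**Figure D2:**
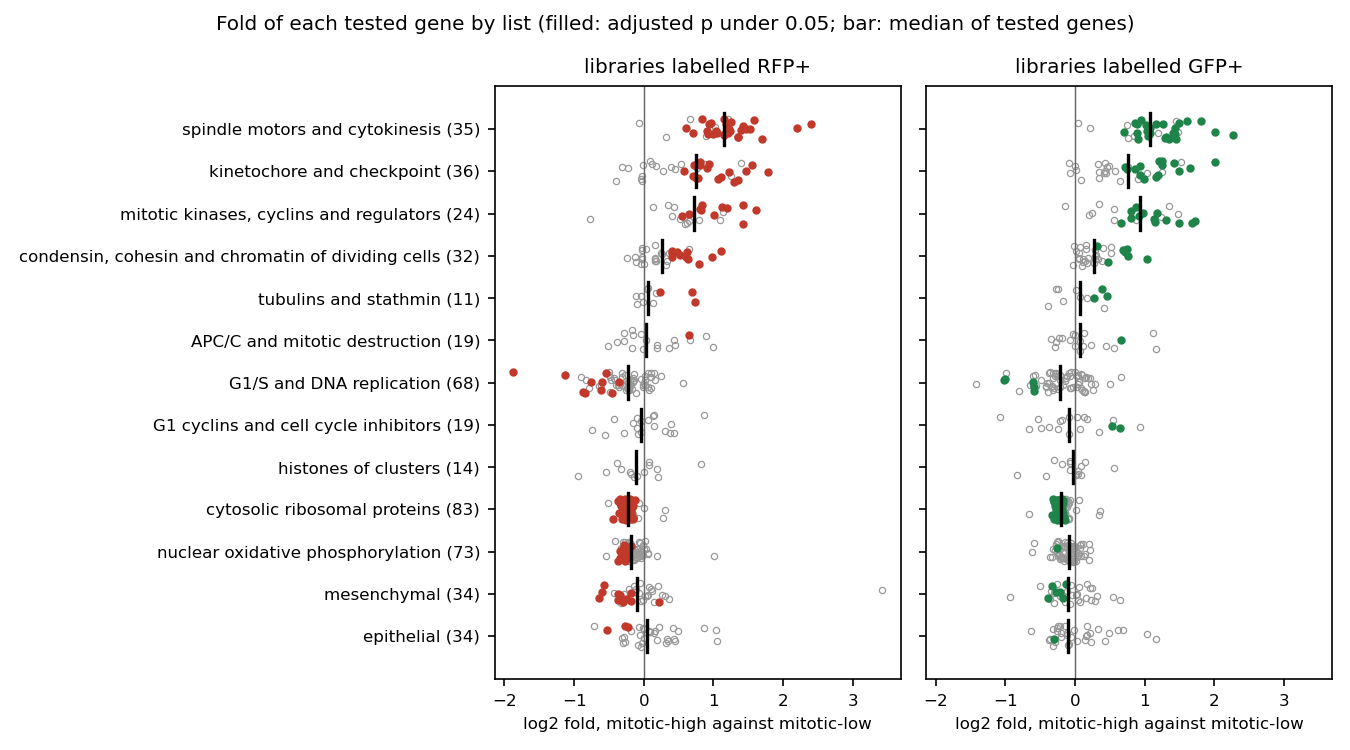
Log2 fold of mitotic-high against mitotic-low cells for each tested gene of 13 lists, with libraries labelled RFP+ on the left and GFP+ on the right. Filled points passed an adjusted p under 0.05, open points did not, bars are medians, and the number of tested genes stands in brackets; the medians of the first 3 lists lie to the right of 0, at 0.72 to 1.15, though a few genes of these lists lie below 0.

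Promoters of the genes that rose in both populations held 2 short motifs more often than those of all genes tested. RefSeq promoters on GRCm38.p6 (250 bases before to 50 after the start) were matched by symbol for 5532 of 7273 tested genes and for 58 of the 75 genes called higher in both. TTTGAA, the core of the cell cycle homology region, was looked for on both strands and stood in 69.0% of the 58 against 11.8% of all. CCAAT, the box bound by NF-Y, stood in 70.7% against 39.2%, and both motifs together in 56.9% against 5.03%. Within 50 bases of the start TTTGAA stood in 55.2% against 3.02%. The E2F-like GGCGGGAA was in 0 of the 58 and in 4.88% of all promoters. Genes called lower in both populations, with 54 promoters of 71, had TTTGAA in 11.1%, CCAAT in 33.3% and GGCGGGAA in 7.41%. Of 9 score genes with a promoter in the table, 7 held TTTGAA and all 9 CCAAT. A match is a description of letters, not a bound site.

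The 100 bases before the start of 6 genes show examples of these matches, not a typical set. The risers shown all hold TTTGAA in this stretch, while most promoters of genes called higher in both populations do not. Prc1, Kif23 and Plk1 hold it only elsewhere in the promoter, and Nusap1 holds none. Top2a is a score gene, Cdk1, Kif11, Ckap2l and Arhgap11a rose in both populations, and Pcna fell in both and has no TTTGAA in this stretch. Each is written 5′ to 3′ on the gene's strand and ends at the base before the start; capitals mark TTTGAA or its reverse complement and CCAAT or its reverse complement. Top2a is from chr11:99024190-99024289 on the minus strand, Cdk1 from chr10:69352913-69353012 on the minus strand and Kif11 from chr19:37376282-37376381 on the plus strand. Ckap2l is from chr2:129297213-129297312 on the minus strand, Arhgap11a from chr2:113848662-113848761 on the minus strand and Pcna from chr2:132253181-132253280 on the minus strand.
Top2a: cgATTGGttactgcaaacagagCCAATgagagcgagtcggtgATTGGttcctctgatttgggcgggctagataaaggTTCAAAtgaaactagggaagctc
Cdk1: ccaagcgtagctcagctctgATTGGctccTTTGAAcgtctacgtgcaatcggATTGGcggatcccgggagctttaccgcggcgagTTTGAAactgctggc
Kif11: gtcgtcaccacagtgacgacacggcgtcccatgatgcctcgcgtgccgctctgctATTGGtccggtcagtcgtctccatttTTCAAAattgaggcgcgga
Ckap2l: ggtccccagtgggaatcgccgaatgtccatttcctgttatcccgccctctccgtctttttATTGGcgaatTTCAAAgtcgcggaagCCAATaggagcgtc
Arhgap11a: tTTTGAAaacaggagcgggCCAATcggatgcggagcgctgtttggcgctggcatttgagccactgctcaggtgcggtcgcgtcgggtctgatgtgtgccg
Pcna: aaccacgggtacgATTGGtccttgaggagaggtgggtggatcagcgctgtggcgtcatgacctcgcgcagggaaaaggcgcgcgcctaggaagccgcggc
The TTTGAA matches sit 23 bases before the start in Top2a, 71 and 15 in Cdk1, 19 in Kif11, 30 in Ckap2l and 99 in Arhgap11a, counted from the first base of the match. Ckap2l, a spindle protein of dividing cells, rose by 1.40 and 1.30 on the log2 scale.

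**Figure D3:**
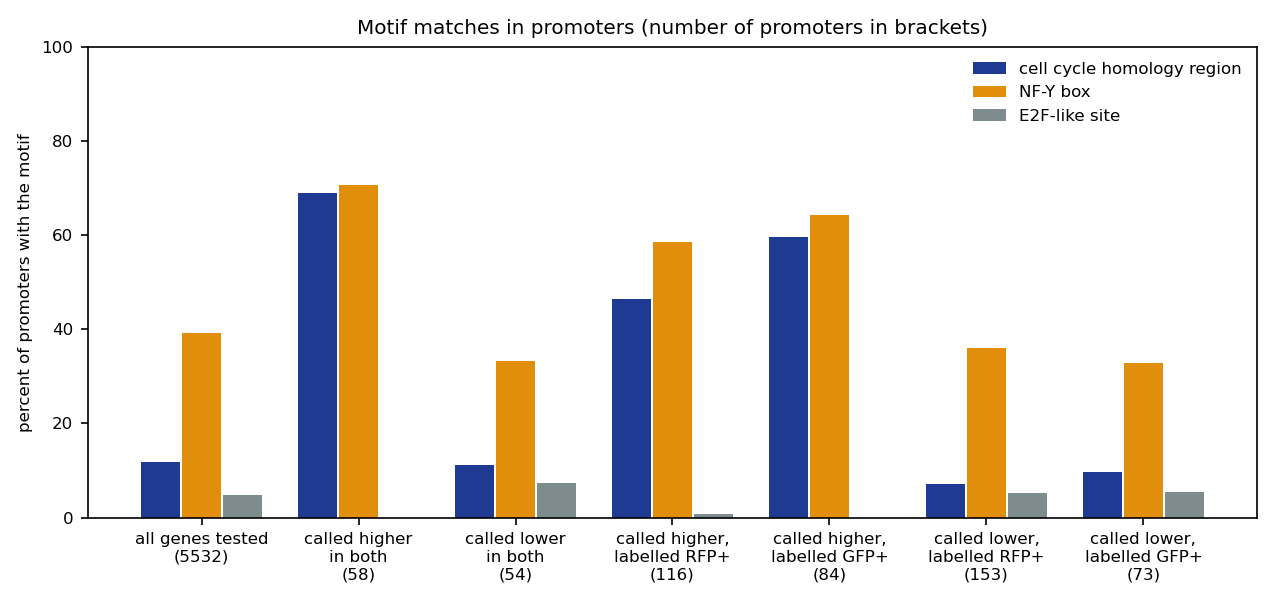
Percent of promoters with at least 1 match to each of 3 motifs, for all genes tested and for genes called higher or lower, with the number of promoters in brackets. The bars of the cell cycle homology region reach 69.0% for genes called higher in both populations and 11.8% for all genes tested.

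Among genes of the G1/S passage and of replication, some were lower in mitotic-high cells and none passed as higher. Of 68 tested, 10 fell in the RFP+ and 5 in the GFP+ labelled cells, 4 in both, and the median log2 folds were -0.23 and -0.21. Pcna, the sliding clamp of DNA polymerase, had 316 and 362 CPM in mitotic-high against 479 and 511 CPM in mitotic-low cells labelled RFP+. In the GFP+ labelled libraries it had 372 and 343 CPM against 538 and 505 CPM. The classes did not overlap, and the log2 folds were -0.61 ± 0.10 (SE, n = 2; adjusted p = 4.74e-08) and -0.58 ± 0.10 (SE, n = 2; adjusted p = 6.26e-07). Cdc6, which loads the replicative helicase, fell from 67.6 and 88.4 CPM to 31.5 and 42.9 CPM in the RFP+, and from 87.9 and 83.2 CPM to 45.5 and 41.6 CPM in the GFP+ labelled libraries. Its log2 fold was -1.13 and -1.01, and the call was lost without either library of the same population. Ccne2, the E-type cyclin that starts S phase, fell by 0.85 and 1.02 on the log2 scale, and Mcm6, a helicase subunit, by 0.54 and 0.58. Ung, which removes uracil from DNA, fell from 50.3 and 54.1 CPM to 17.8 and 11.1 CPM in the RFP+ labelled libraries (-1.87, adjusted p = 6.74e-06). Its levels of 25.3 and 11.4 CPM against 32.8 and 23.8 CPM in the GFP+ labelled libraries did not pass (-0.64, adjusted p = 0.549), and its 2 folds were not shown to differ (adjusted p = 0.933). Without the second library labelled RFP+, the call of Ung in that population was lost. DESeq2 called 0 of the 68 genes in either population, where edgeR put 22 and 19 at an unadjusted p under 0.05. Leaving out the first library labelled GFP+ ended all 5 calls there, that of Pcna included, and leaving out the second left 1. Leaving out either library labelled RFP+ gave 3 calls in that population, and the first labelled GFP+ gave 4. The calls of Ccne2 and Mcm6 labelled RFP+ were lost without the second library of that label or the first labelled GFP+, and that of Ccne2 also without the first labelled RFP+. Those labelled GFP+ were lost without either library of that label. Mcm2, another helicase subunit, was the remaining call labelled GFP+ (-0.60), lost in the same way, and its fold of -0.38 labelled RFP+ did not pass.

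Of 19 G1 cyclins and inhibitors, 2 rose in the GFP+ labelled cells: Cdkn1b (p27, an inhibitor of cyclin-dependent kinases; log2 fold 0.64) and Ccng1 (a p53 target; 0.52). None passed in the RFP+ labelled cells, with 4 of 19 at an unadjusted p under 0.05 by edgeR and 0 called by DESeq2. Cdkn1b and Ccng1 averaged higher there too, at 112 against 81.0 CPM and 273 against 239 CPM. Over all genes tested, 2.05% were called higher in the RFP+ and 1.51% in the GFP+ labelled cells. Ccnd1, the G1 cyclin, had folds of 0.06 and 0.13 and Cdkn1a, the p21 inhibitor, of 0.31 and -0.19, all short of the threshold. Of 17 p53 targets, Mdm2, the ubiquitin ligase of p53, rose in the RFP+ labelled cells from 86.7 and 54.1 CPM to 136 and 126 CPM (0.82, adjusted p = 0.00172). In the GFP+ labelled cells it had 104 and 85.2 CPM against 87.9 and 99.0 CPM (adjusted p = 0.998), and the difference between populations did not pass (adjusted p = 0.92). The call of Mdm2 was lost without the second library labelled RFP+, and that of Ccng1 and Cdkn1b without either library labelled GFP+. Of 14 genes of the histone clusters that passed the filter, out of 62 in the table, none was called by edgeR or DESeq2, with 2 lower at an unadjusted p under 0.05 in each population by edgeR. The other 48 were under the filter, and transcripts of replication histones mostly lack the poly(A) tail that Drop-seq captures.

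Genes coding for cytosolic ribosomal proteins held the most falls of any list. Of 83 tested, 66 fell in the RFP+ and 50 in the GFP+ labelled cells, 46 in both, by small amounts: the median log2 folds were -0.22 and -0.20. Summed over the list, mitotic-high cells held 168145 and 171317 CPM against 189263 and 193617 CPM in the RFP+, and 155739 and 158779 CPM against 174867 and 178385 CPM in the GFP+ labelled libraries. The median share over single cells was 16.6% and 16.7% against 18.1% and 18.7%, and 15.6% and 15.9% against 17.1% and 17.3%, so mitotic-high cells were lower in every library. Rps27, a protein of the small subunit, had 983 and 1058.5 CPM against 1269 and 1392 CPM in the RFP+ labelled libraries (log2 fold -0.44), and 923 and 1005 CPM against 1100 and 1206 CPM in the GFP+ labelled libraries (-0.30). Transcript length moved with the folds of all genes. The median length was 914 bases for ribosomal protein genes and 3007 for all genes tested with a length. In 5 bins of genes by length, the shortest had median log2 folds of -0.14 and -0.12, and the longest of 0.14 and 0.10. With length and GC content as offsets, 15 and 10 ribosomal protein genes passed the test and the medians were -0.10 and -0.08. DESeq2 called 0 of the 83. Leaving out either library labelled RFP+ gave 30 calls in that population, and leaving out the first or second labelled GFP+ gave 9 or 20 in the other, where Rps27 was lost both times. Of 84 genes of ribosome biogenesis, 3 rose in the RFP+ labelled cells: Ncl (nucleolin, 0.14), Ubtf (a factor of RNA polymerase I, 0.43) and Ftsj3 (a methyltransferase of ribosomal RNA, 0.37), all lost without either library of that label. With length and GC offsets Ncl changed sign (-0.042). None passed in the GFP+ labelled cells by edgeR or DESeq2, where 10 had an unadjusted p under 0.05 by edgeR. The same 3 genes averaged higher in mitotic-high cells there too. Ncl had 4586 against 4140 CPM, Ubtf 313 against 239 CPM and Ftsj3 382 against 305 CPM. Their folds were not called as different between populations. Over all genes tested, 2.05% were called higher in the RFP+ and 1.51% in the GFP+ labelled cells. Of 73 nuclear genes of oxidative phosphorylation, 10 fell in the RFP+ labelled cells, such as Cox7b, a subunit of cytochrome oxidase (-0.37). In the GFP+ labelled cells Cox7b averaged 581 against 645 CPM without passing. There 1 fell, Atp5e, a subunit of ATP synthase (-0.26), lost without either library of that label. Atp5e was also among the 10, a call lost without the second library labelled RFP+ or the first labelled GFP+. Without the first or second library labelled RFP+ 4 or 3 were called, without the first labelled GFP+ 4, and Cox7b was lost without the second labelled RFP+. With length and GC offsets 0 passed in either population.

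**Figure D4:**
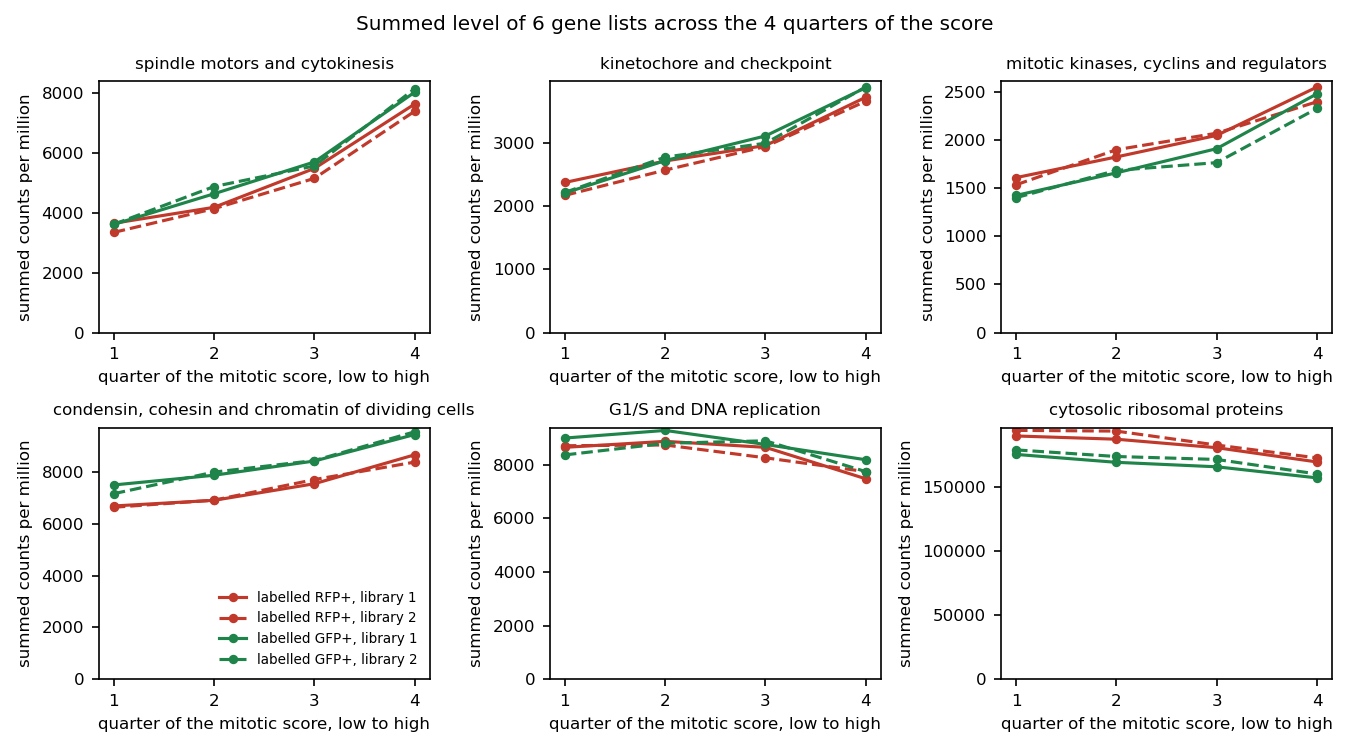
Summed CPM of 6 gene lists in 4 equal bins of the mitotic score, from low to high, in each library (red, labelled RFP+; green, labelled GFP+; solid, library 1; dashed, library 2). The 3 lists in the upper row and the condensin list climb from the first to the last bin, the G1/S list is lowest in the last bin, and the ribosomal protein list declines.

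The cells between the classes, which entered no test, were split into 2 further bins of 25% by score. All bin levels leave out the score genes from the total. Nusap1 averaged 55.7, 81.7, 161 and 306 CPM from the lowest to the highest bin in the RFP+, and 59.9, 96.5, 138 and 295 CPM in the GFP+ labelled libraries. The spindle list was higher at each step as well, from 3501 over 4164 and 5320 to 7520 CPM, and from 3617 over 4760 and 5636 to 8093 CPM, with the widest step to the last bin. Pcna ran otherwise, at 495, 498, 439 and 339 CPM and at 521, 539, 469 and 357 CPM. The whole G1/S list was likewise highest in the second bin on average (8808 and 9044 CPM) and lowest in the last (7611 and 7966 CPM).

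Of 34 mesenchymal genes tested, 10 fell and 1 (Itgb1, an integrin chain, 0.21) rose in the RFP+ labelled cells, and 6 fell in the GFP+ labelled cells, all 6 among the 10. Without the first or second library labelled RFP+, 6 or 4 were called lower and Itgb1 was lost, and without the first or second labelled GFP+, 0 or 3 were called lower in that population. Of 34 epithelial genes, 3 and 1 fell, where 2.71% and 1.35% of all genes tested were called lower. The median log2 folds were small: -0.09 and -0.10 for mesenchymal and 0.04 and -0.10 for epithelial genes. Spp1 (osteopontin, a secreted matrix protein) had 1352 and 1275 CPM in mitotic-high against 2044 and 1706 CPM in mitotic-low cells labelled RFP+, and 2422 and 2336 CPM against 2824 and 2769 CPM in those labelled GFP+ (log2 folds -0.57 and -0.27). The classes did not overlap within a population, and the call labelled GFP+ was lost without the first library. S100a4, the gene whose promoter drives Cre in these cells, had 542 and 580 CPM against 662 and 735 CPM in the RFP+, and 1563 and 1929 CPM against 1965 and 2313 CPM in the GFP+ labelled libraries (-0.37 and -0.33). Each library was lower in its mitotic-high cells, and the call was lost without the second library labelled RFP+ and without the first labelled GFP+. Vim, the intermediate filament of mesenchymal cells, fell by 0.30 and 0.17, and Cyr61, a matrix protein, by 0.60 and 0.39. In the GFP+ labelled cells the calls of Vim and Cyr61 were lost without either library, and in the RFP+ labelled cells that of Vim without the second. In the RFP+ labelled cells the epithelial genes Cd9 (a tetraspanin, -0.52), Krt18 (a keratin, -0.22) and Cd24a (-0.27) fell. Cd24a also fell in the GFP+ labelled cells (-0.30). Cd9 (483 against 511 CPM) and Krt18 (331 against 376 CPM) averaged lower there without passing. The calls of Krt18 and Cd24a were lost without either library of the same population. Krt8, Epcam and Cdh1 passed in neither population, with folds of -0.27 and -0.26, 0.16 and 0.14, and 0.19 and 0.21. The reporter row named for RFP was lower in mitotic-high cells labelled GFP+, at 2732 and 2917 CPM against 3206 and 3345 CPM (-0.25, adjusted p = 3.99e-06), a call lost without the first library of that label. Areg, an EGF receptor ligand, fell by 0.47 in the RFP+ labelled cells. Its levels of 327 and 286 CPM against 381 and 376 CPM in the GFP+ labelled libraries did not pass. With length and GC offsets the calls of S100a4, Krt18 and Itgb1 labelled RFP+ were lost. So were those of Vim labelled GFP+ and of Cd24a in both populations. The other calls named in this paragraph held under these offsets. With cells thinned to 1000 counts, every call named in this paragraph was lost except that of Cyr61 labelled RFP+.

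**Figure D5:**
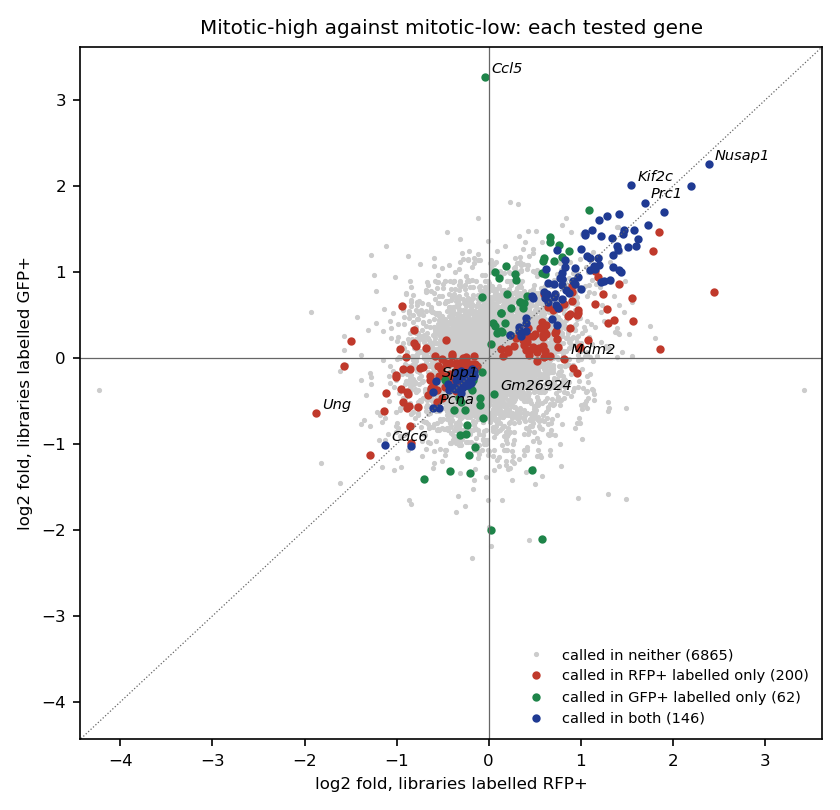
Log2 fold of mitotic-high against mitotic-low cells for each of the 7273 tested genes, in the libraries labelled RFP+ (horizontal) and GFP+ (vertical), with the dotted line at equal folds. Genes called in both populations (blue, 75 higher and 71 lower) lie in the upper right and lower left, and Ccl5 stands apart at 3.27 on the vertical axis.

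Of 346 genes called in the RFP+ labelled cells, 327 had a fold of the same sign in the GFP+ labelled cells, and of 208 called in the latter 202 had the same sign in the former. The share of same-sign folds over all genes tested is not given here, so these counts have no base beside them. No gene was called in opposite directions. A test of the difference itself passed for 3 genes (0.0412% of those tested), Gm26924, Ccl5 and Spp1, with 388 at an unadjusted p under 0.05 by edgeR, and DESeq2 called 0. All of the 3 depend on the setting or on single libraries, as given among the results for a closer look. Kif2c, with folds of 1.55 and 2.01, Ckap2 (1.20 and 1.61) and Kif4, a chromosome-bound kinesin (1.05 and 1.45), had the larger fold in the GFP+ labelled cells, but differences of 0.46, 0.40 and 0.40 did not pass (adjusted p 0.973 or more).

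Of 20 immune markers 9 are rows of the table, and Ptprc, Lyz2 and Tyrobp had no count in the classes, with a summed level of 18.4 to 49.0 CPM in mitotic-high and 18.9 to 64.9 CPM in mitotic-low cells. Endothelial markers (8 of 12 in the table) reached 4.08 to 25.1 CPM and 3.61 to 24.1 CPM, with Pecam1, Esam and Cldn5 at 0. Fibroblast markers (7 of 12) reached 3.16 to 80.9 CPM and 10.8 to 97.0 CPM, led by Col1a2. Erythroid markers (4 of 10) reached at most 3.47 CPM, with Alas2 at 0. Within a library, fibroblast markers were lower in mitotic-high cells in all 4, at 13.6 against 19.1 CPM and 3.16 against 10.8 CPM labelled RFP+, and at 50.2 against 67.2 CPM and 80.9 against 97.0 CPM labelled GFP+. These rest on 2 to 49 counts in a class. Immune markers were higher in mitotic-high cells in 2 of 4 libraries and endothelial markers in 3 of 4. Mitochondrially encoded counts made up 0.523% and 0.508% of mitotic-high against 0.610% and 0.579% of mitotic-low cells labelled RFP+, and 0.370% and 0.275% against 0.388% and 0.318% in those labelled GFP+, lower in every library. Of 8 tested, mt-Rnr2, the large ribosomal RNA of the mitochondrion, fell in both (-0.30 and -0.15), though 17 of 18 alternatives ended the call labelled GFP+. Its level did not decline steadily with the score. On average it was highest in the third bin, at 5035 CPM labelled RFP+ and 2949 CPM labelled GFP+. In the lowest bin it had 4460 and 2536 CPM. The part of the fibroblast markers and of the mitochondrial share in the other results was not tested.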

How the data were processed

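Drop-seq libraries came from sorted Tri-PyMT cells, per the labels' protocols. The authors deposited raw counts per gene and cell, with GRCm38 named in the submitters' processing notes. Not given in the sources used here are the aligner, the counter, any collapsing of molecular identifiers and the choice of cells. Columns without a sample numbered 0.

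Members and gene lists were chosen with earlier results of these data known. Counts were summed for each library and class (504958 to 730178 counts in each of 8 sums) and compared by the quasi-likelihood test of edgeR 4.0.16 (R 4.3.3), with library as block, TMM scaling, Benjamini-Hochberg adjustment and a threshold of 0.05. The block pairs the classes of a library, which share its cells, lanes and preparation. All libraries entered 1 fit with 2 residual degrees of freedom. The common biological coefficient of variation was 0.0241, and every gene took the trend of all genes. The SE was computed as the size of the log2 fold divided by the root of F, so it holds no spread of the single gene. CPM are scaled to a class sum without the score genes. Score genes, reporters over all cells used, markers of other cells and summed ribosomal protein levels are scaled to all counts. The reporter level of a class is scaled like other genes, shares of single cells and mitochondrial percentages are of all counts, and a left-out score gene is scaled to all but the other 9. Levels of different genes are not scaled by length and were not compared.

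In simulated sums with 7269 genes tested, the RFP+ labelled comparison recovered 60.0% of 2-fold and 26.8% of 1.5-fold changes. The GFP+ labelled comparison recovered 51.6% and 21.6%. Calls of unchanged genes were 2 of 85 and 4 of 74. The simulated sums were drawn with the common spread of the fit for every gene and without choosing cells by score. They cannot show how often unchanged genes are called in the measured sums, where genes may differ in spread. Lengths come from GENCODE M21 (95.3% of tested genes) and promoters from RefSeq on GRCm38.p6.

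Genes to be named were taken from the 12 largest rises and falls for each population among calls with 50 CPM or more in the higher class, without predicted gene models and without ribosomal protein or mitochondrially encoded genes. Added to these are the 4 largest folds of each of 27 lists, the genes that differ between populations and a fixed set. The largest rises and falls are all named; of the lists' genes the text gives a part. Ckap2l, Tubb5, Tpr, Itgb1, Cd24a, Ncl, Ubtf, Ftsj3 and Atp5e were chosen after their values were seen. Alternatives covered DESeq2 1.42.0, scaling, filters, the block, each population alone, each library left out, depth and the width of the classes. Offsets for length and GC content were added after the data were seen.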

Additional observations from a re-analysis of the deposited data

Results flagged for a closer look

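The fold of mitotic-high against mitotic-low cells differed between populations for 3 genes by the test of the difference in edgeR. Differences are the log2 fold labelled GFP+ less that labelled RFP+. With 2 libraries a population, no library was tested as standing apart.

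Gm26924, a predicted gene, had 4904 and 4375 CPM in mitotic-high against 3978 and 4597 CPM in mitotic-low cells labelled RFP+, and 4781 and 5167 CPM against 6196 and 6759 CPM in those labelled GFP+. The difference was -0.48 (adjusted p = 9.84e-15), lower in both GFP+ labelled libraries and in 1 of 2 labelled RFP+. It was lost without the first library labelled RFP+ (-0.31, adjusted p = 0.082) and without the first labelled GFP+ (-0.48, adjusted p = 0.632). A few cells held many of its counts: single cells had up to 315 in the first mitotic-high class labelled RFP+ and up to 229 in the first mitotic-low class labelled GFP+. The median over cells was 4 counts in both classes labelled RFP+, and 5 in mitotic-high against 6 in mitotic-low cells labelled GFP+.

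Ccl5, a chemokine, had 6 and 27 counts in mitotic-high and 0 and 3 in mitotic-low cells labelled GFP+, from 15 and 3 cells, and 1 cell held 11 of them. In the RFP+ labelled libraries it had 67 and 45 against 51 and 40 counts. The difference was 3.31 (adjusted p = 0.00451), a fitted value that rests on few counts and on a library at 0. It was lost without the first library labelled RFP+ (adjusted p = 0.0798), without the first labelled GFP+ (0.632) and without the second (0.938).

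Spp1 fell in both populations, less in the GFP+ labelled cells, with a difference of 0.30 (adjusted p = 0.0493). The call was lost under 16 of 17 alternatives, where the adjusted p ranged from 0.0525 to 1, and held among cells with 2000 or more counts (0.60, adjusted p = 0.0286).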

How the results depend on the processing

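Genes called higher and lower (149 and 197 labelled RFP+, 110 and 98 labelled GFP+) fell in number under several settings. DESeq2 gave 21 and 3, and 22 and 1. Cells thinned to 1000 counts gave 33 and 35, and 32 and 14. Cells with 2000 or more counts gave 69 and 77, and 53 and 9. Leaving out the deepest 5% of cells gave 91 and 103, and 71 and 54. The top and bottom 10% gave 50 and 41, and 48 and 17. These last 4 hold fewer counts or cells. Each population fitted alone gave 93 and 110 for RFP+. Library totals alone gave 99 and 63 lower genes, length and GC offsets 75 and 40, and no filter on low counts 125 lower genes labelled RFP+. Leaving out 1 library gave 67 to 137 and 63 to 174, and 31 to 112 and 12 to 105. Without the replicate block, which pairs the classes of a library, 112 and 47 genes were lower and 120 and 94 higher. The cause of the lower numbers was not tested for any setting.

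The number of genes that differ between populations was 3 in the main fit. It was 1 without the replicate block, with a filter of 50 CPM and in thinned cells. It was also 1 among cells with 2000 or more counts and without the deepest 5%. DESeq2 and the top and bottom 10% called 0, with 5 genes at an unadjusted p under 0.05 by DESeq2. With 1 library left out, the difference ranged from -0.68 to -0.31 for Gm26924. It ranged from 3.06 to 5.66 for Ccl5 and from 0.19 to 0.37 for Spp1. Among named genes, 2 called values changed sign, both labelled RFP+: Msrb1, at 0.18 in the top and bottom 10% (adjusted p = 0.956), and Ncl, at -0.042 with length and GC offsets (adjusted p = 0.777). Of 127 calls of genes taken by the naming rule or added to it, 22 held under every alternative run for them and 105 were lost under 1 or more. In simulated sums at these depths, with the same spread for every gene, 26.8% of 1.5-fold changes labelled RFP+ and 21.6% labelled GFP+ were recovered.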

Other observations

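Immediate early genes, which answer growth signals within minutes, lay below 0 without passing. Of 18 tested, 3 had a fold above 0 in the RFP+ and 5 in the GFP+ labelled cells, with median log2 folds of -0.26 and -0.29. None was called by edgeR or DESeq2, and 3 and 5 had an unadjusted p under 0.05 by edgeR. Junb had folds of -0.55 and -0.21, Maff of -0.78 and -0.04, and Myc of -0.10 and -0.63. Of 18 genes of cholesterol synthesis none was called by either tool, with 1 and 2 at an unadjusted p under 0.05 by edgeR. Over all genes tested, 2.71% were called lower in the RFP+ and 1.35% in the GFP+ labelled cells. Of 16 genes of glycolysis, Aldoa (-0.27) fell in the RFP+ and Ldha (-0.28) in the GFP+ labelled cells, both lost without either library of the same population. Each averaged lower without passing in the other population, Aldoa at 457 against 495 CPM and Ldha at 949 against 1036 CPM. Of 24 heat shock genes and chaperones, Hspb1 (-1.13) and Hspe1 (-0.23) fell in the RFP+ labelled cells. Hspb1 had 45.2 and 41.3 CPM in mitotic-high against 62.4 and 124.5 CPM in mitotic-low cells, and its call was lost without the second library, that of Hspe1 without either. Neither passed in the GFP+ labelled cells, where Hspb1 had 52.2 and 51.1 CPM against 69.0 and 87.1 CPM. Hspe1 averaged 905 against 958 CPM there.

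Further genes with large changes belong to no list. Dock1, a regulator of Rac, rose by 1.44 and 0.999, calls lost without the second library labelled RFP+ and without either labelled GFP+. In the RFP+ labelled cells Becn1, an autophagy gene, fell by 0.94, a call lost without the second library or the first labelled GFP+, and in the GFP+ labelled cells its fold of 0.61 did not pass. In the GFP+ labelled cells Map1lc3b, the LC3 protein of autophagosomes, fell by 0.69, a call lost without either library, and in the RFP+ labelled cells its fold was -0.06. Neither difference between populations passed (adjusted p = 0.363 for Becn1 and 0.92 for Map1lc3b, by edgeR).

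The other large changes are given by their values. Cdca2, a chromatin protein of mitosis, rose by 1.42 and 1.02, calls lost without the first library labelled RFP+ and without either labelled GFP+. In the RFP+ labelled cells Gsta4 fell by 1.01 on the log2 scale, Prkcdbp by 0.95, Rpl36-ps3 (a pseudogene that can share reads with its parent) by 0.93, Tslp by 0.90, Msrb1 by 0.89, Chaf1b (a histone chaperone of replication) by 0.87, Sdc1 by 0.87 and Tmem60 by 0.86. The call of each of these 8 was lost without either library labelled RFP+ and without the first labelled GFP+, and that of Msrb1 also without the second. In the GFP+ labelled cells Usp5 (a deubiquitinase) fell from 58.6 and 43.6 CPM to 16.8 and 26.5 CPM, a log2 fold of -1.30 that was lost without the first library of that label, and Prl2c2 fell by 0.89, lost likewise. Nipa2 fell by 1.13, Triap1 by 1.03, Arl2bp by 0.88, Arf5 by 0.77 and Hnrnpf by 0.61, all 5 lost without either library of that label. No gene named in this paragraph was among the 3 whose fold differed between populations in edgeR's test.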
